A study of Homo sapiens with 9 samples.

Results

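The 55 genes described here carry out mitosis, the step at which a cell separates its copied chromosomes and divides. They were taken by gene symbol from a list of mitosis and chromosome segregation genes, drawn up with earlier results of these data known and using no measured value as a criterion, out of 41737 genes with a symbol and 62703 genes in all. Each of the 55 symbols was found once in the table, and all 55 had enough counts to be tested. They fall into 11 roles: entry into mitosis, transcription of late cell cycle genes, the kinases AURKA and PLK1, the chromosomal passenger complex, the spindle assembly checkpoint, anaphase onset, kinesins, the kinetochore, spindle microtubule proteins, midzone and cytokinesis, and condensin with other chromosome proteins.

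RNA was sequenced from HK-2 cells, a human kidney tubule line transformed with papillomavirus type 16 and labelled wild type, in 9 libraries. The MYDGF group (3 libraries, numbered 1, 3 and 4) received an adenovirus carrying MYDGF, a secreted growth factor, together with 5 µg/ml of aristolochic acid for 48 h. The aristolochic acid group (3 libraries, numbered 1, 4 and 6) received 5 µg/ml of aristolochic acid, a plant toxin that forms DNA adducts, for 48 h. The untreated group (3 libraries, numbered 1, 2 and 3) received no aristolochic acid. Serum starvation for 12 h and culture in 5% serum are given in the protocols of all 9 libraries. No control vector is named for the aristolochic acid or untreated cells, so MYDGF and the adenovirus that carried it cannot be told apart. The treatment labels of 4 libraries (MYDGF 3 and 4, untreated 2 and 3) read HK-3 or HK-4, while their cell line entry reads HK-2.

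Libraries held 10876572 to 14254786 counts, and the 55 genes took 0.835 to 0.998% of them. MYDGF itself stood at 510.2 to 663 CPM (counts scaled with TMM and set relative to library size) in the MYDGF group, 74.2 to 104.9 CPM with aristolochic acid alone and 122.8 to 130.7 CPM in untreated cells. Of 12 proximal tubule markers, 9 were under 1 CPM in untreated cells, among them LRP2, HNF4A and PAX8, and the summed level of the 12 was 13.7 to 17.2 CPM in the MYDGF group, 15.9 to 19.2 CPM with aristolochic acid and 8.56 to 13.1 CPM in untreated cells. Markers of epithelial cells, mostly keratins, summed to 2090 to 2160 CPM, 2340 to 2350 CPM and 1660 to 1690 CPM in the same order of groups. The 6 endothelial markers, each under 1 CPM in untreated cells, summed to 3.83 to 4.31 CPM in the MYDGF group, 7.85 to 13.8 CPM with aristolochic acid and 1.29 to 1.43 CPM in untreated cells. The part of these shifts in the results below was not tested.

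Entry into mitosis depends on CDK1 bound to cyclin B, which CDC25 phosphatases switch on and which is held in check until DNA damage is repaired. Kinetochores then attach chromosomes to the spindle, the spindle assembly checkpoint delays separation until every chromosome is attached, and the anaphase-promoting complex with CDC20 starts separation by destroying securin and cyclin B. The mRNAs of these genes build up in G2 and mitosis, largely through CCAAT boxes read by NF-Y and through the cell cycle genes homology region (CHR), at which the DREAM complex represses and B-MYB (MYBL2) with FOXM1 activates. In the healthy kidney tubule few cells divide, whereas a cell line in culture divides steadily.

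The promoters of 6 members with a large change and both motifs are printed to show these elements, as the 150 bases before the RefSeq transcription start on the gene's own strand (GRCh38.p14), 5′ to 3′, with matches of CCAAT and of the CHR core (TTTGAA or TTTAAA), read on either strand, in capitals.
KIF20A (chr5:138178962-138179111, plus strand): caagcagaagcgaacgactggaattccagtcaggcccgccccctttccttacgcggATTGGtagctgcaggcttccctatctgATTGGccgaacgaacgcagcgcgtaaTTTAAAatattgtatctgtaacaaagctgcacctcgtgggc
CENPA (chr2:26785906-26786055, plus strand): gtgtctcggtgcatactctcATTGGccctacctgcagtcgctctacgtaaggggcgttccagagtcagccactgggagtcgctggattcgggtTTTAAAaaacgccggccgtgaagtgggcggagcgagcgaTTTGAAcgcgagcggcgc
CCNB1 (chr5:69167000-69167149, plus strand): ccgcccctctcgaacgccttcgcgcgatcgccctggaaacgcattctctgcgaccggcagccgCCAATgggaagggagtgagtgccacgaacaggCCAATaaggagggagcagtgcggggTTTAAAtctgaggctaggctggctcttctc
PTTG1 (chr5:160421705-160421854, plus strand): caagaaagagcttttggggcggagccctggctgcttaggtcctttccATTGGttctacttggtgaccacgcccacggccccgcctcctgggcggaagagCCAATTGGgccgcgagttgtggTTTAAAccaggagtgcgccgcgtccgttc
ESPL1 (chr12:53268149-53268298, plus strand): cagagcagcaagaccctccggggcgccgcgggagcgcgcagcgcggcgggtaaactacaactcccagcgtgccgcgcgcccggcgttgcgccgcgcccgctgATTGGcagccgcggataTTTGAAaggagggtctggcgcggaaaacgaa
MKI67 (chr10:128126424-128126573, minus strand): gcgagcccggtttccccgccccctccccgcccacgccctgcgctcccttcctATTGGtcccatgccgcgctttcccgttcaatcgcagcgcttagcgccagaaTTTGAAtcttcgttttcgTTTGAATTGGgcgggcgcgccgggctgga
KIF20A, CENPA, CCNB1 and PTTG1 were lower with aristolochic acid, and ESPL1 and MKI67 were higher. All 6 were chosen for holding both motifs, so they cannot show how the motifs relate to the direction of change. Matches overlap each other in 2 places, where PTTG1 has CCAAT on both strands and where MKI67 has a CHR core joined to a CCAAT match on the other strand. The RefSeq promoter table held 48 of the 55 members, with 60 windows from 250 bases before to 50 bases after a start. CCAAT on either strand was found in 70.0% of these 60 windows and in 34.6% of all 35116 windows of the table. TTTGAA or TTTAAA on either strand was found in 78.3% of the members' windows and in 24.0% of all windows, and both motifs together in 58.3% and 9.27%. All windows include those of genes not tested here. In the 17177 windows of tested genes, the shares were 34.2% for CCAAT, 17.2% for TTTGAA or TTTAAA and 6.67% for both. The median log2 fold change, aristolochic acid over untreated, was -0.039 in the 37 members with a CCAAT match in any window and 0.25 in the 11 without one. It was 0.079 in the 43 members with a CHR core match and -0.079 in the 5 without one, and 0.046 in the 32 members with both motifs and 0.16 in the other 16; these differences were not tested. Of the 37 members with a CCAAT match, 13 were higher and 13 lower with aristolochic acid at an adjusted p under 0.05. Of the 11 without one, 6 were higher and 0 lower. For the CHR core, 17 were higher and 12 lower of the 43 with a match, and 2 higher and 1 lower of the 5 without. Over all genes tested, 29.7% were higher and 29.3% lower, and the counts by motif were not tested. The motif matches describe the letters of the windows and say nothing of what binds there.

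**Figure D1:**
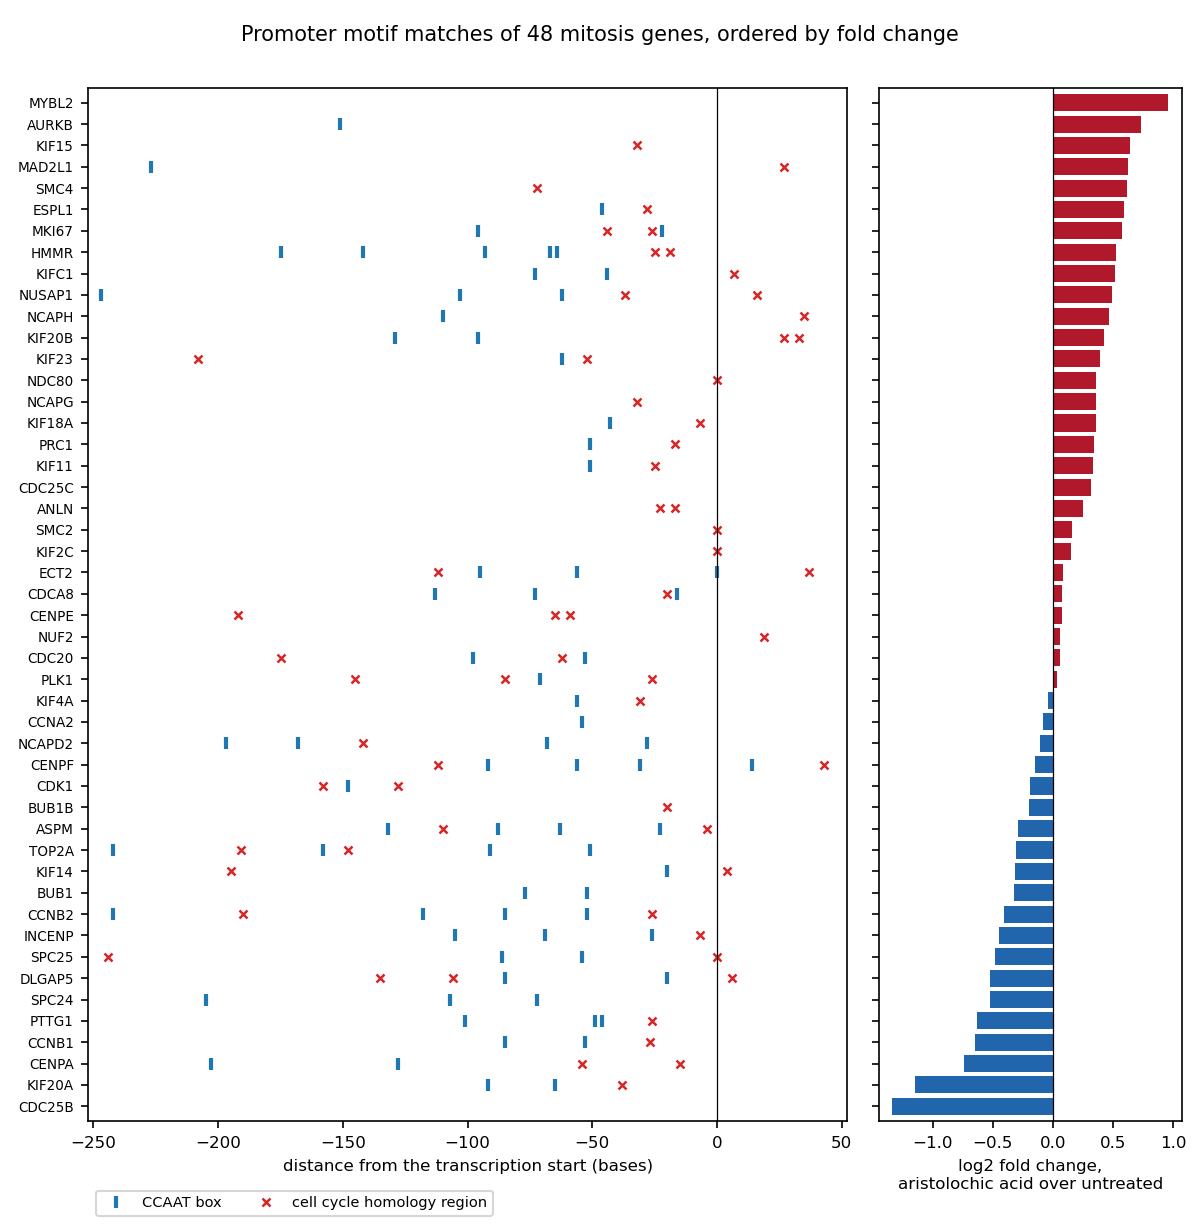
Left, positions of CCAAT matches (bars) and of TTTGAA or TTTAAA matches (crosses) on either strand in 1 RefSeq promoter window per gene, as distance in bases from the transcription start, for the 48 members with a window. Right, log2 fold change of the same genes, aristolochic acid over untreated, by which the rows are ordered; most CCAAT matches lie upstream of the start, and matches of both kinds occur from the top to the bottom of the order.

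Aristolochic acid against untreated cells, the first comparison in the design, gave calls among the mitosis genes in both directions. The largest falls were in CDC25B, which switches on CDK1, KIF20A, a motor of cytokinesis, CENPA, the centromeric histone, CCNB1, or cyclin B1, and PTTG1, or securin. The largest rises were in MYBL2, AURKB, KIF15, MAD2L1 and SMC4, and the proliferation marker MKI67 also rose. A gene is called here where edgeR's quasi-likelihood test, adjusted by Benjamini-Hochberg over all genes tested, gave p under 0.05. Of the 55 genes, 20 were called higher (29.7% of all 18267 genes tested were), 13 were called lower (29.3% of all genes) and 22 did not pass the test. The share called, 60.0%, was close to the 59% of all genes. The median log2 fold change of the 55 was 0.086, against -0.012 over all genes, and the extremes were -1.33 for CDC25B and 0.96 for MYBL2. The levels of the aristolochic acid and untreated libraries did not overlap for 38 genes, 25 higher (32.9% of all genes) and 13 lower (33% of all genes), or 65.9% of all genes in either direction. In size the changes were mostly small: 2 genes changed at least 2-fold, and the median absolute log2 fold change was 0.34 over the 55 and 0.54 over all genes. The members were also more abundant, with a median of 122 CPM against 16.9 CPM over all genes tested. Because these are bulk samples, a change in the share of cells in mitosis and a change in RNA per cell cannot be told apart.

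**Figure D2:**
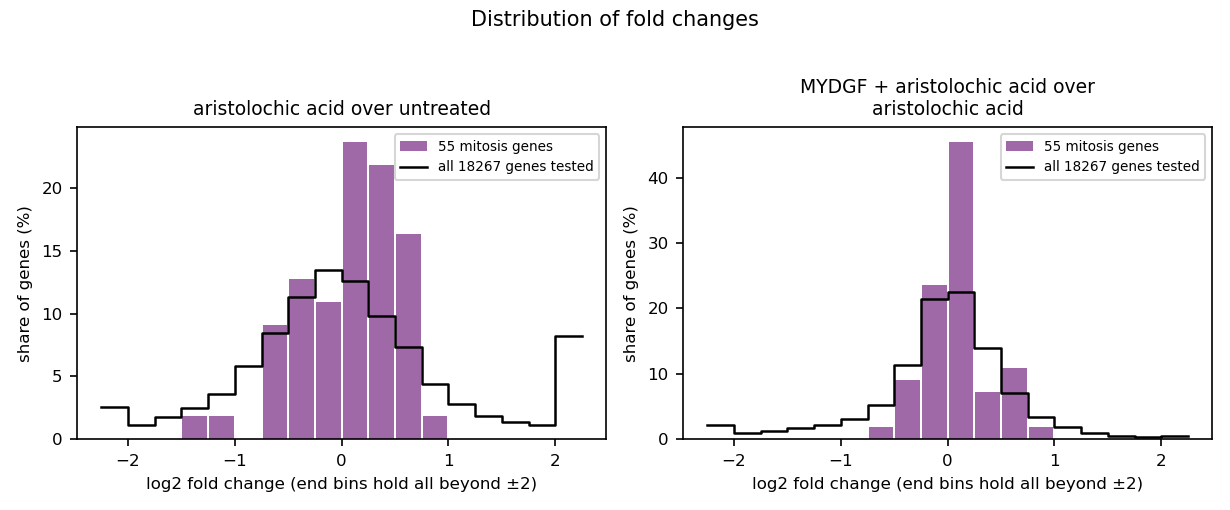
Share of genes (%) by log2 fold change in bins of 0.25 for the 55 mitosis genes (bars) and all 18267 genes tested (line); left, aristolochic acid over untreated, right, MYDGF with aristolochic acid over aristolochic acid. The end bins hold all values beyond ±2, and hold no mitosis gene.

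In the second comparison, cells given MYDGF and aristolochic acid were set against cells given aristolochic acid alone. CDC25B, PTTG1, MYBL2, KIF20A, CENPA and CCNB1 had the largest rises among the members called, between 0.53 and 0.78 on the log2 scale. CDC25C, ECT2 and NCAPH were the members called lower. In all, 13 of 55 genes were called higher (14.7% of all genes were) and 3 lower (14.7% of all genes), while 39 did not pass; with RLE scaling the split was 10 higher and 5 lower, and with DESeq2 11 higher and 5 lower. The share called was 29.1%, against 29.4% of all genes. The median log2 fold change was 0.09 over the 55 and 0.01 over all genes, and no member reached a 2-fold change. Levels did not overlap between the groups for 23 genes, 18 higher (22.5% of all genes) and 5 lower (21.8% of all genes), against 44.3% of all genes in either direction. This comparison uses the same aristolochic acid libraries as the first, so that a low or high level in them moves both. Of the 16 calls, those of CDC25C, ASPM, NCAPH, SMC4 and TOP2A were lost when 1 library was left out, with adjusted p from 0.0534 to 0.143. Without aristolochic acid 1, 19 members were called higher, and without MYDGF 4, 1 member was called lower. With the replicate numbers fitted as a block, 0 members were called in this comparison, and 14 of all genes tested.

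MYDGF with aristolochic acid against untreated cells, which shares libraries with both other comparisons, gave 22 members higher (26.8% of all genes were) and 8 lower (24.3% of all genes), with 25 not passing. The share called was 54.5%, against 51.1% of all genes, and levels did not overlap for 36 members, 25 higher (32.8% of all genes) and 11 lower (31.1% of all genes), against 63.9% of all genes in either direction. The extremes were 1.59 for MYBL2 and -0.78 for SPC25, and the median was 0.079, against 0.022 over all genes. Of the 30 calls, 8 (CDC25B, AURKB, INCENP, KIFC1, CENPE, NUF2, SPC25 and TOP2A) were lost without at least 1 library, with adjusted p from 0.0517 to 0.155, and CENPE also with no filter on low counts (adjusted p = 0.101). Without MYDGF 1, or without MYDGF 4, 4 members were called lower. With the replicate numbers fitted as a block, 17 members were called, 1 of them lower.

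**Figure D3:**
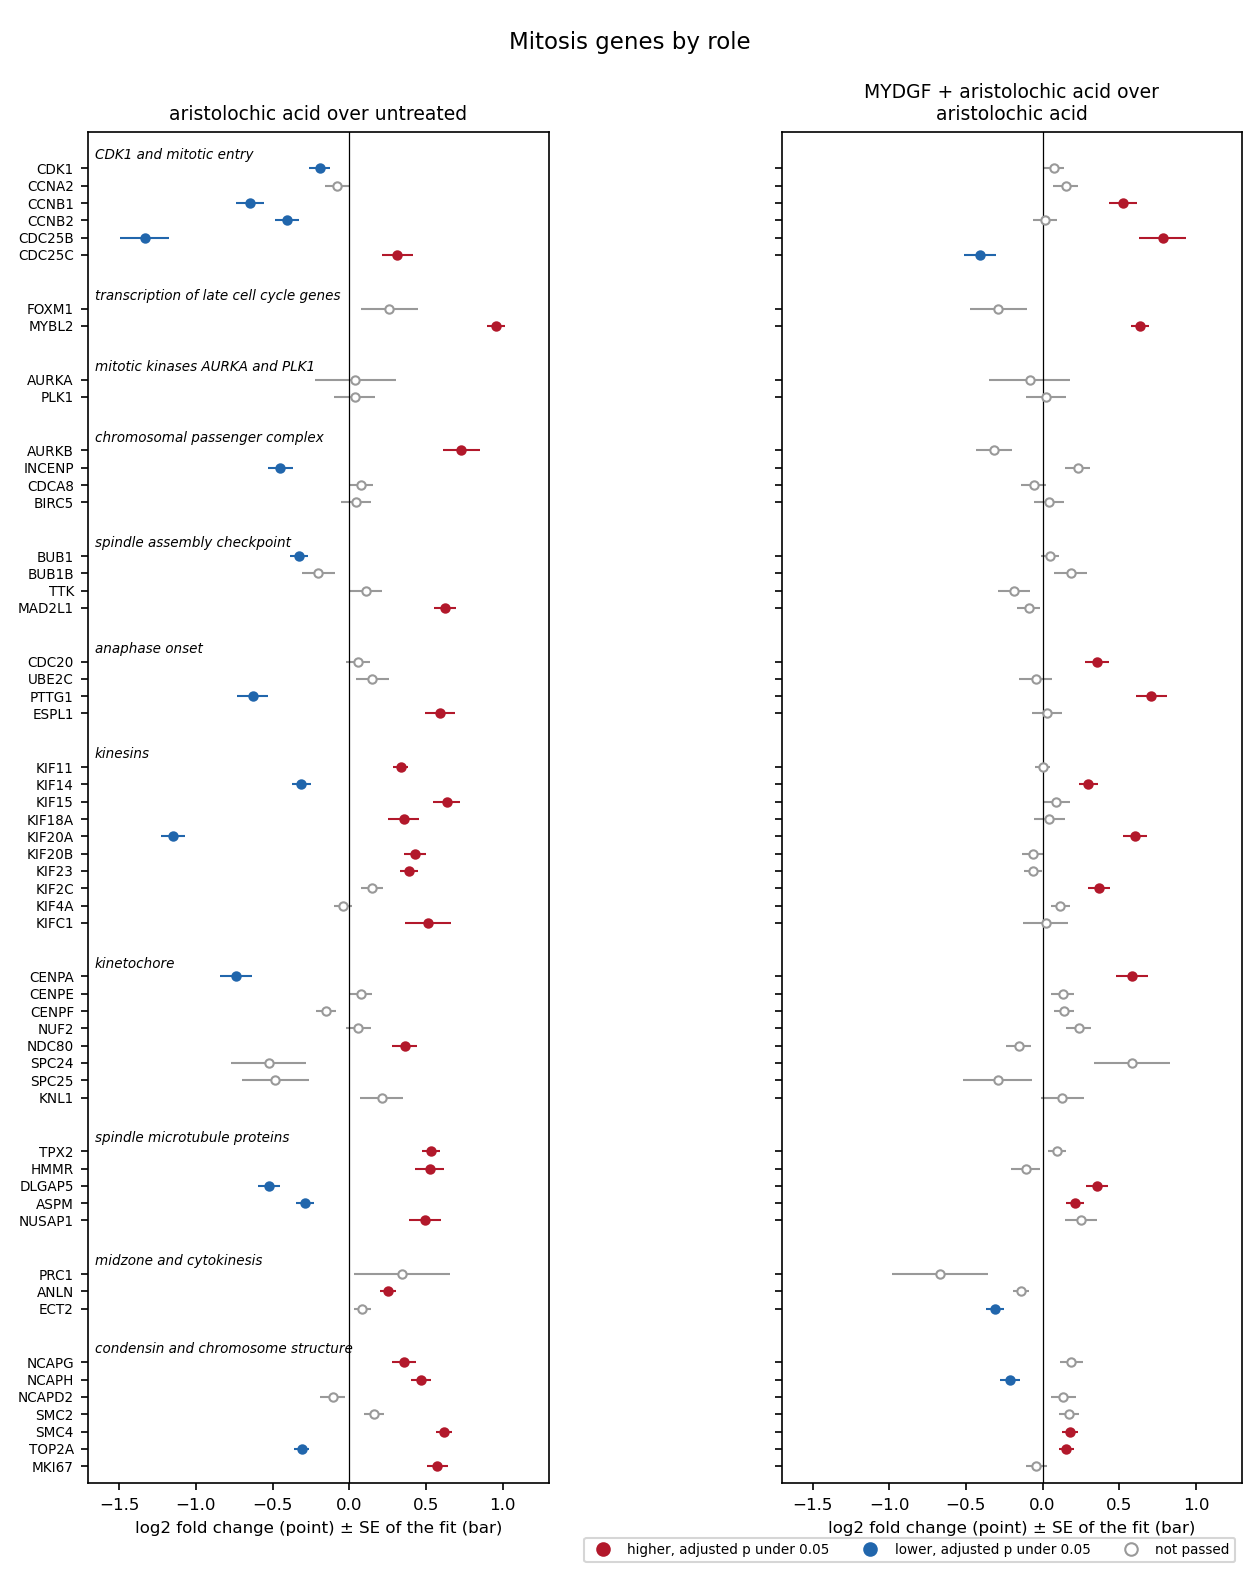
Log2 fold change (point) with the standard error of the fit (bar) of the 55 mitosis genes by role; left, aristolochic acid over untreated, right, MYDGF with aristolochic acid over aristolochic acid, n = 3 libraries per group. Filled points passed an adjusted p of 0.05; most roles hold filled points on both sides of 0 in the left panel, and CDC25B and KIF20A lie farthest to the left.

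Over all genes, 29.7% were called higher and 29.3% lower with aristolochic acid, and no role was tested against these shares. Among the genes of mitotic entry, 4 of 6 fell with aristolochic acid and 1 rose, with the largest fall in CDC25B, a phosphatase that activates CDK1 (chromosome 20, 3786772 to 3806121, GRCh38). CDC25B had 124, 162 and 137 CPM in the MYDGF libraries, 99.8, 62.6 and 83.6 CPM with aristolochic acid alone and 207, 205 and 208 CPM in untreated cells. All 3 libraries with aristolochic acid alone lay below every other library, and the MYDGF libraries lay between the other groups. The log2 fold change was -1.33 (SE 0.157, adjusted p = 0.000103) for aristolochic acid over untreated and 0.78 (SE 0.156, adjusted p = 0.00666) for MYDGF over aristolochic acid. It was -0.55 (SE 0.154, adjusted p = 0.0146) for MYDGF over untreated, a call lost without MYDGF 1 (adjusted p = 0.0675) and without MYDGF 4 (adjusted p = 0.0549). CCNB1, the main cyclin partner of CDK1 (chromosome 5, 69167135 to 69178245), had 154, 171 and 179 CPM in the MYDGF libraries, 133, 112 and 106 CPM with aristolochic acid alone and 186, 181 and 182 CPM in untreated cells. The order of the groups was the same as for CDC25B, with no overlap between any pair of groups. Its log2 fold change was -0.65 (SE 0.0917, adjusted p = 0.000285) for aristolochic acid over untreated and 0.53 (SE 0.0916, adjusted p = 0.00393) for MYDGF over aristolochic acid, while MYDGF over untreated, at -0.12 (adjusted p = 0.295), did not pass.

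CDK1, the kinase itself, moved least among the genes called in this role, with 127, 120.5 and 131 CPM in the MYDGF libraries, 131, 115 and 113 CPM with aristolochic acid alone and 137, 137 and 137 CPM in untreated cells. Its fall with aristolochic acid, -0.19 (SE 0.0698, adjusted p = 0.0373), was lost without aristolochic acid 4, without aristolochic acid 6 and without each untreated library (adjusted p 0.0621 to 0.192). It was also lost with RLE or upper quartile scaling, DESeq2 or a fit to the 6 libraries compared (adjusted p 0.0768 to 0.101), and MYDGF over aristolochic acid was 0.072 (adjusted p = 0.473). CCNB2, the second B-type cyclin, fell by 0.40 with aristolochic acid and had a log2 fold change of 0.016 (adjusted p = 0.896) for MYDGF over aristolochic acid. CDC25C, a second CDK1 phosphatase, went the other way, with 22.9, 27.6 and 24.5 CPM in the MYDGF libraries, 35.7, 33.8 and 29.9 CPM with aristolochic acid alone and 25.5, 27.2 and 27.3 CPM in untreated cells. Its levels with aristolochic acid alone lay above both other groups, at 0.31 (SE 0.102, adjusted p = 0.0239) over untreated and -0.41 (SE 0.102, adjusted p = 0.0166) for MYDGF over aristolochic acid. The first of these calls was lost without aristolochic acid 1 or 4 and without untreated 1 or 2 (adjusted p 0.0515 to 0.0863) and with no filter on low counts (adjusted p = 0.0674), and the second without MYDGF 4 (adjusted p = 0.0534). CDC25C overlaps FAM53C on the opposite strand, whose level ran from 53.7 to 248 CPM without following the groups, and whether counting used strand is not stated. CCNA2, cyclin A, did not pass in any comparison, at -0.079 (adjusted p = 0.426) for aristolochic acid over untreated. EXOSC9 overlaps CCNA2 on the opposite strand and held 71.6% of the CCNA2 counts. It had 65.5 to 72.1 CPM in the MYDGF group, 63.0 to 81.6 CPM with aristolochic acid and 55.8 to 61.5 CPM in untreated cells. Its part in the CCNA2 counts was not tested.

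MYBL2, or B-MYB, which activates late cell cycle promoters (chromosome 20, 43667019 to 43716495), had 509, 508 and 531 CPM in the MYDGF libraries, 354, 308 and 335 CPM with aristolochic acid alone and 169, 172 and 172 CPM in untreated cells. The groups stood well apart, and MYBL2 rose both with aristolochic acid and again with MYDGF. Its log2 fold change was 0.96 (SE 0.0594, adjusted p = 5.44e-06) for aristolochic acid over untreated, 0.63 (SE 0.0588, adjusted p = 0.000438) for MYDGF over aristolochic acid and 1.59 (SE 0.0601, adjusted p = 1e-06) for MYDGF over untreated. FOXM1, the transcription factor that acts with it, had 78.0, 138 and 87.6 CPM in the MYDGF libraries, 138, 111 and 122 CPM with aristolochic acid alone and 102, 104 and 103 CPM in untreated cells. MYDGF 3 lay at the level of the highest aristolochic acid library, while the other MYDGF libraries lay below every untreated library. None of the 3 comparisons passed for FOXM1, with 0.26 (adjusted p = 0.253) for aristolochic acid over untreated and -0.29 (adjusted p = 0.277) for MYDGF over aristolochic acid. Without MYDGF 3, FOXM1 was called lower in MYDGF over aristolochic acid (adjusted p = 0.0121) and over untreated (adjusted p = 0.0455). A fit to the 6 libraries compared called it higher in aristolochic acid over untreated (adjusted p = 0.0272). RHNO1 overlaps FOXM1 on the opposite strand, with counts equal to 22.5% of those of FOXM1. RHNO1 had 26.9, 16.3 and 29.5 CPM in the MYDGF libraries, 26.6, 16.7 and 23.9 CPM with aristolochic acid alone and 25.9, 23.8 and 29.4 CPM in untreated cells. Its part in the FOXM1 counts was not tested.

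**Figure D4:**
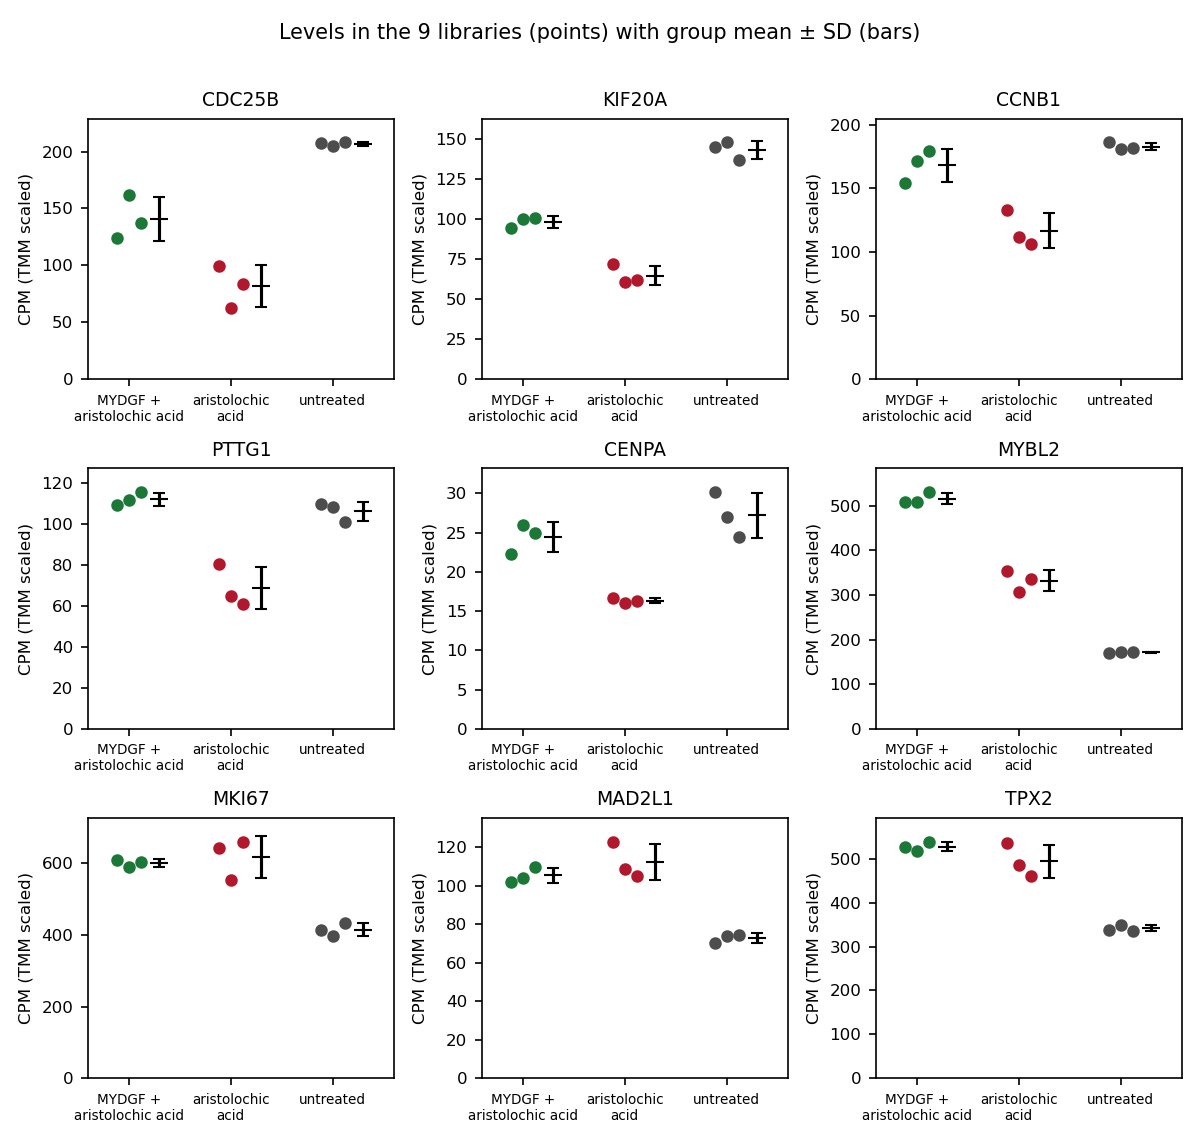
Level in TMM-scaled CPM of 9 mitosis genes in each of the 9 libraries (points), with the mean and SD of the 3 libraries of a group (bars) beside them; the groups run from MYDGF with aristolochic acid at left to untreated at right. CDC25B, KIF20A, CCNB1, PTTG1 and CENPA were lowest with aristolochic acid alone, MYBL2 was highest with MYDGF, and MKI67, MAD2L1 and TPX2 were lowest in untreated cells.

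The mitotic kinases PLK1 and AURKA, which act at centrosomes and kinetochores, did not pass in any comparison. PLK1 had 101, 96.6 and 77.7 CPM in the MYDGF libraries, 103, 89.3 and 78.7 CPM with aristolochic acid alone and 78.1, 97.0 and 89.4 CPM in untreated cells. Its groups overlapped throughout, and the log2 fold change was 0.035 (SE 0.132, adjusted p = 0.833) for aristolochic acid over untreated and 0.023 (SE 0.132, adjusted p = 0.912) for MYDGF over aristolochic acid. Of the 4 chromosomal passenger complex subunits, 1 rose, 1 fell and 2 did not pass with aristolochic acid (59% of all genes were called). AURKB, its kinase, had 60.6, 65.7 and 67.3 CPM in the MYDGF libraries, 96.6, 68.7 and 76.1 CPM with aristolochic acid alone and 47.9, 51.0 and 46.5 CPM in untreated cells. Every aristolochic acid library lay above every other library, and the MYDGF libraries lay above the untreated ones. The log2 fold change was 0.73 (SE 0.119, adjusted p = 0.000628) for aristolochic acid over untreated, -0.32 (adjusted p = 0.0706) for MYDGF over aristolochic acid, which did not pass, and 0.41 (SE 0.119, adjusted p = 0.0168) for MYDGF over untreated. This last call was lost without MYDGF 4, untreated 1 or untreated 3 (adjusted p 0.0534 to 0.0553).

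INCENP, the scaffold that holds AURKB, had 114, 121 and 113 CPM in the MYDGF libraries, 107, 93.4 and 96.9 CPM with aristolochic acid alone and 145, 123 and 137 CPM in untreated cells. Untreated libraries were highest without overlap, at -0.45 (SE 0.0803, adjusted p = 0.00107) for aristolochic acid over untreated and 0.23 (adjusted p = 0.0593) for MYDGF over aristolochic acid, which did not pass. For MYDGF over untreated it was -0.22 (SE 0.0799, adjusted p = 0.0433), lost without any of the MYDGF libraries, untreated 1 or untreated 3 (adjusted p 0.0723 to 0.155), and with upper quartile scaling or no filter (adjusted p = 0.0753 and 0.0765). The subunits CDCA8 (borealin) and BIRC5 (survivin) did not pass in any comparison, with 0.079 (adjusted p = 0.419) and 0.042 (adjusted p = 0.731) for aristolochic acid over untreated.

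Checkpoint genes also split. MAD2L1, which inhibits CDC20 until chromosomes are attached, had 102, 104 and 110.1 CPM in the MYDGF libraries, 123, 109 and 105 CPM with aristolochic acid alone and 70.1, 73.7 and 74.8 CPM in untreated cells. All untreated libraries lay below the rest, and the groups with aristolochic acid overlapped each other. MAD2L1 rose by 0.63 (SE 0.0746, adjusted p = 0.000109) with aristolochic acid over untreated and by 0.53 (SE 0.0745, adjusted p = 0.000378) in MYDGF over untreated, while MYDGF over aristolochic acid was -0.091 (adjusted p = 0.386). BUB1, a kinase that recruits checkpoint proteins to kinetochores, had 109.5, 107 and 112 CPM in the MYDGF libraries, 109, 107 and 100.3 CPM with aristolochic acid alone and 131, 136 and 131 CPM in untreated cells. Untreated libraries were highest, with -0.33 (SE 0.0582, adjusted p = 0.00104) for aristolochic acid over untreated, 0.049 (adjusted p = 0.567) for MYDGF over aristolochic acid and -0.28 (SE 0.0581, adjusted p = 0.00343) for MYDGF over untreated. BUB1B and TTK, a checkpoint inhibitor of CDC20 and a checkpoint kinase, did not pass in any comparison.

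At anaphase onset, securin and separase moved apart. PTTG1, or securin, which holds separase inactive (chromosome 5, 160421855 to 160428739), had 109, 111 and 116 CPM in the MYDGF libraries, 80.6, 64.6 and 60.9 CPM with aristolochic acid alone and 109.5, 108 and 101 CPM in untreated cells. The aristolochic acid libraries lay below all others, and the MYDGF and untreated libraries overlapped. Its log2 fold change was -0.63 (SE 0.101, adjusted p = 0.000582) for aristolochic acid over untreated, 0.71 (SE 0.101, adjusted p = 0.00187) for MYDGF over aristolochic acid and 0.079 (adjusted p = 0.533) for MYDGF over untreated, which did not pass. ESPL1, the separase that cuts cohesin, had 225, 212 and 219 CPM in the MYDGF libraries, 253, 192 and 199 CPM with aristolochic acid alone and 144, 145 and 137 CPM in untreated cells. It was lowest in untreated cells without overlap, at 0.59 (SE 0.0989, adjusted p = 0.000723) for aristolochic acid over untreated and 0.62 (SE 0.0989, adjusted p = 0.00079) for MYDGF over untreated, and stood at 0.029 (adjusted p = 0.851) for MYDGF over aristolochic acid. CDC20, which directs the anaphase-promoting complex to securin, had 177, 189 and 192 CPM in the MYDGF libraries, 157, 131 and 148 CPM with aristolochic acid alone and 142, 143 and 134 CPM in untreated cells. The MYDGF libraries lay above all others, with 0.35 (SE 0.076, adjusted p = 0.00887) for MYDGF over aristolochic acid and 0.41 (SE 0.076, adjusted p = 0.00178) for MYDGF over untreated, against 0.057 (adjusted p = 0.537) for aristolochic acid over untreated. UBE2C, the ubiquitin-conjugating enzyme of the complex, did not pass in any comparison.

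Of the 10 kinesins, 6 rose and 2 fell with aristolochic acid (29.7% of all genes were called higher and 29.3% lower). KIF20A, a motor of the central spindle needed for cytokinesis (chromosome 5, 138178719 to 138187723), had 94.3, 99.9 and 101 CPM in the MYDGF libraries, 71.8, 60.7 and 61.8 CPM with aristolochic acid alone and 145, 148 and 137 CPM in untreated cells. The 3 groups did not overlap, with aristolochic acid lowest and untreated highest. Its log2 fold change was -1.15 (SE 0.0786, adjusted p = 7.66e-06) for aristolochic acid over untreated, 0.60 (SE 0.0781, adjusted p = 0.0014) for MYDGF over aristolochic acid and -0.54 (SE 0.0774, adjusted p = 0.000419) for MYDGF over untreated. KIF20A overlaps BRD8 at one end and CDC23 at the other, both on the opposite strand. BRD8 had 62.0 to 69.0 CPM in the MYDGF group, 86.1 to 91.5 CPM with aristolochic acid and 113 to 128 CPM in untreated cells, and CDC23 had 98.6 to 110 CPM, 110.1 to 119.9 CPM and 82.4 to 94.0 CPM in the same order; their part in the KIF20A counts was not tested. KIF14, a cytokinesis motor, also fell with aristolochic acid, by 0.31, and was higher with MYDGF than with aristolochic acid alone, at 0.30 (adjusted p = 0.00802).

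KIF15, which works beside KIF11 to keep spindle poles apart, had the largest rise among kinesins, with 55.2, 54.9 and 55.5 CPM in the MYDGF libraries, 55.8, 47.4 and 52.5 CPM with aristolochic acid alone and 32.3, 31.1 and 36.7 CPM in untreated cells. Untreated libraries were lowest, at 0.64 (SE 0.0886, adjusted p = 0.000254) for aristolochic acid over untreated and 0.73 (SE 0.0884, adjusted p = 0.000178) for MYDGF over untreated, and MYDGF over aristolochic acid was 0.09 (adjusted p = 0.475). KIF11, KIF18A, KIF20B, KIF23 and KIFC1 rose with aristolochic acid by 0.34 to 0.51. Of these, KIF18A lost its call without untreated 1 (adjusted p = 0.0574) and KIFC1 without untreated 3 (adjusted p = 0.0546). KIF2C, which removes tubulin from microtubule ends, was called in MYDGF over aristolochic acid, at 0.37 (adjusted p = 0.00553), and not in aristolochic acid over untreated, at 0.15 (adjusted p = 0.0945). The difference between these comparisons was not tested.

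Most kinetochore genes, 6 of 8, did not pass with aristolochic acid (59% of all genes were called). CENPA, the histone H3 variant that marks centromeres (chromosome 2, 26764289 to 26801067), had 22.3, 26.0 and 25.0 CPM in the MYDGF libraries, 16.7, 16.0 and 16.3 CPM with aristolochic acid alone and 30.2, 27.0 and 24.4 CPM in untreated cells. The aristolochic acid libraries lay below all others and close together, and the MYDGF and untreated libraries overlapped. Its log2 fold change was -0.74 (SE 0.106, adjusted p = 0.000306) for aristolochic acid over untreated and 0.58 (SE 0.106, adjusted p = 0.00466) for MYDGF over aristolochic acid, and MYDGF over untreated, at -0.16 (adjusted p = 0.239), did not pass. The table's CENPA interval overlaps SLC35F6 on the same strand, which had 27.3 to 31.0 CPM with MYDGF, 32.0 to 37.9 CPM with aristolochic acid and 28.8 to 88.5 CPM in untreated cells, the highest in untreated 2.

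NDC80, which binds microtubules at the outer kinetochore, had 166, 165 and 176 CPM in the MYDGF libraries, 207, 186 and 172 CPM with aristolochic acid alone and 136, 152 and 152 CPM in untreated cells. It rose with aristolochic acid over untreated, at 0.36 (SE 0.0801, adjusted p = 0.00363), and MYDGF over aristolochic acid, at -0.16 (adjusted p = 0.17), did not pass. Its partner NUF2 had 45.9, 43.1 and 44.7 CPM in the MYDGF libraries, 42.0, 35.6 and 36.0 CPM with aristolochic acid alone and 36.7, 35.5 and 36.8 CPM in untreated cells. NUF2 passed in MYDGF over untreated, at 0.30 (SE 0.0824, adjusted p = 0.0145), a call lost without untreated 2 (adjusted p = 0.0613) and with no filter (adjusted p = 0.0513). RGS5, which overlaps NUF2 on the opposite strand, had 11.4 to 15.6 CPM in the MYDGF group, 12.8 to 13.8 CPM with aristolochic acid and 4.46 to 5.47 CPM in untreated cells, and its part in the NUF2 counts was not tested. SPC25 was the least abundant member, with 2.22, 2.50 and 2.19 CPM in the MYDGF libraries, 2.75, 2.09 and 3.68 CPM with aristolochic acid alone and 4.36, 3.86 and 3.63 CPM in untreated cells. The MYDGF libraries lay below the untreated ones, at -0.78 (SE 0.221, adjusted p = 0.0159), a call lost without MYDGF 1, MYDGF 4 or untreated 1 (adjusted p 0.055 to 0.0603). CENPF, a large outer kinetochore protein, had 394, 377 and 406 CPM in the MYDGF libraries, 332, 356 and 383 CPM with aristolochic acid alone and 408, 404 and 377 CPM in untreated cells. Its groups overlapped, at -0.15 (adjusted p = 0.0697) for aristolochic acid over untreated and 0.14 (adjusted p = 0.14) for MYDGF over aristolochic acid, and neither passed.

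All 5 spindle microtubule proteins were called with aristolochic acid, 3 higher and 2 lower (59% of all genes were called). TPX2, which activates AURKA on the spindle, had 526, 518 and 539 CPM in the MYDGF libraries, 535, 487 and 461 CPM with aristolochic acid alone and 339, 349.9 and 336 CPM in untreated cells. Untreated libraries were far below the others, at 0.53 (SE 0.0597, adjusted p = 7.81e-05) for aristolochic acid over untreated and 0.63 (SE 0.0598, adjusted p = 4.83e-05) for MYDGF over untreated, and MYDGF over aristolochic acid was 0.094 (adjusted p = 0.267). DLGAP5, a spindle assembly factor, had 131, 129 and 140.1 CPM in the MYDGF libraries, 114, 100.2 and 98.9 CPM with aristolochic acid alone and 150.4, 153 and 148 CPM in untreated cells. The groups did not overlap, with -0.52 (SE 0.0709, adjusted p = 0.000216) for aristolochic acid over untreated and 0.35 (SE 0.0708, adjusted p = 0.00677) for MYDGF over aristolochic acid, while MYDGF over untreated was -0.17 (adjusted p = 0.068). HMMR, a spindle protein that also binds hyaluronan, rose by 0.52 and ASPM, a spindle pole protein, fell by 0.29 with aristolochic acid. ASPM was also called in MYDGF over aristolochic acid, at 0.21 (adjusted p = 0.0257), and lost that call without MYDGF 1 or 4 and without aristolochic acid 4 or 6 (adjusted p 0.0569 to 0.101), and with RLE scaling (adjusted p = 0.0511).

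NUSAP1, which bundles microtubules near chromatin (chromosome 15, 41320794 to 41381050), had 206, 225 and 191 CPM in the MYDGF libraries, 188, 174 and 161 CPM with aristolochic acid alone and 112, 118 and 142 CPM in untreated cells. Untreated libraries were lowest, at 0.49 (SE 0.104, adjusted p = 0.00272) for aristolochic acid over untreated and 0.74 (SE 0.104, adjusted p = 0.000386) for MYDGF over untreated. An unnamed locus on the same strand (ENSG00000285920, chromosome 15, 41284007 to 41380996) overlaps it, with 18.1 to 24.3 CPM, 9.80 to 43.1 CPM and 18.3 to 64.8 CPM in the MYDGF, aristolochic acid and untreated groups. With the counts of the locus added, NUSAP1 stood at 0.21 (adjusted p = 0.0879) for aristolochic acid over untreated and at 0.41 (adjusted p = 0.00559) for MYDGF over untreated, so that the first call was lost.

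PRC1, which crosslinks the microtubules of the midzone (chromosome 15, 90966040 to 90995629), fell into separate low and high libraries that did not follow the groups. PRC1 had 205, 109 and 97.6 CPM in the MYDGF libraries, 199, 217 and 239.9 CPM with aristolochic acid alone and 200.4, 211 and 105 CPM in untreated cells. MYDGF 3, MYDGF 4 and untreated 3 lay between 97.6 and 109 CPM and the other 6 libraries between 199 and 239.9 CPM. An unnamed locus overlaps PRC1 on its strand (ENSG00000284946, chromosome 15, 90966190 to 91022566) and had 151.6, 150.9 and 128.8 CPM in those 3 libraries and 26.5 to 46.8 CPM in the other 6. In all, 15 members overlap a locus with at least 10% of their counts. The sum of PRC1 and its locus was 232 to 266 CPM in all 9 libraries. PRC1 alone had a log2 fold change of -0.67 (SE 0.312, adjusted p = 0.135) for MYDGF over aristolochic acid, and the sum had 0.034 (adjusted p = 0.717). AURKA (chromosome 20, 56369389 to 56392337) had 101, 169 and 168 CPM in the MYDGF libraries, 172, 151 and 141 CPM with aristolochic acid alone and 176, 184 and 92.2 CPM in untreated cells. MYDGF 1 and untreated 3 stood low, but no locus with at least 10% of its counts was found to overlap AURKA. Its comparisons had large errors, with 0.04 (SE 0.266, adjusted p = 0.905) for aristolochic acid over untreated, and did not pass.

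**Figure D5:**
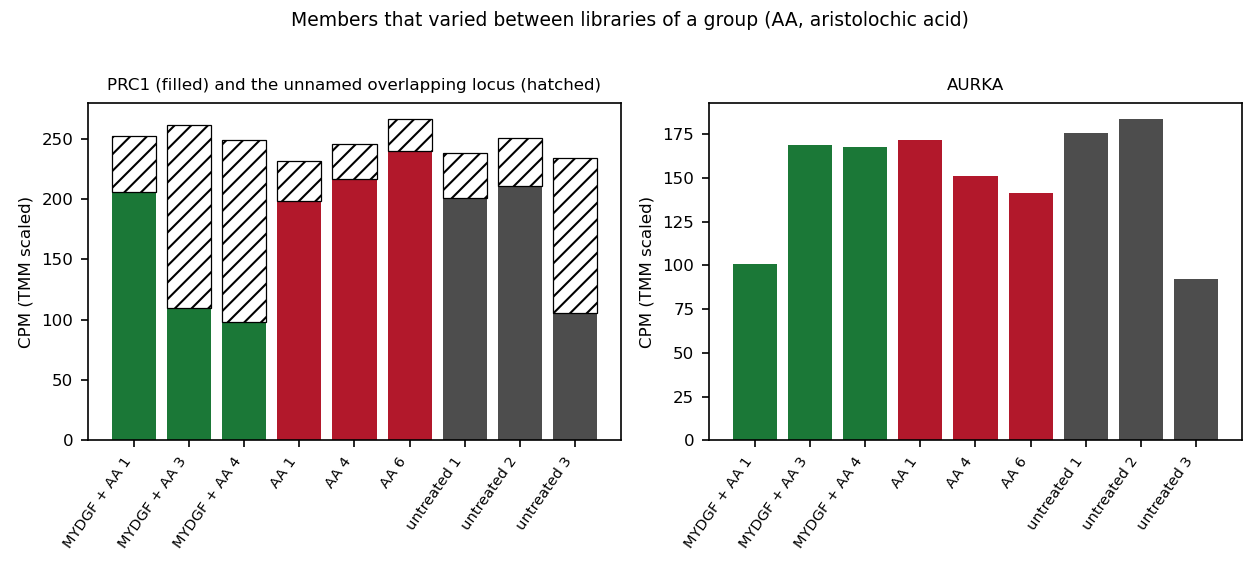
Left, level in TMM-scaled CPM of PRC1 (filled) and of the unnamed locus that overlaps it on its strand (hatched, stacked) in each of the 9 libraries; right, level of AURKA. PRC1 is low where the locus is high and their sums lie between 232 and 266 CPM, while AURKA is low in MYDGF 1 and untreated 3.

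ANLN, a scaffold of the contractile ring, had 344, 344 and 352 CPM in the MYDGF libraries, 361, 402 and 383 CPM with aristolochic acid alone and 311, 331 and 320.0 CPM in untreated cells. It rose with aristolochic acid over untreated, at 0.25 (SE 0.0541, adjusted p = 0.00294), and MYDGF over aristolochic acid, at -0.14 (adjusted p = 0.0782), did not pass although the groups did not overlap. ECT2, which activates RhoA to start cytokinesis, had 258, 263 and 271 CPM in the MYDGF libraries, 316, 351 and 314 CPM with aristolochic acid alone and 303, 306 and 315 CPM in untreated cells. The MYDGF libraries lay below all others, at -0.31 (SE 0.0575, adjusted p = 0.00502) for MYDGF over aristolochic acid and -0.22 (SE 0.0574, adjusted p = 0.0099) for MYDGF over untreated, while aristolochic acid over untreated was 0.086 (adjusted p = 0.225).

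Of 5 genes of condensin, the ring complex that compacts chromosomes, 3 were called higher with aristolochic acid, SMC4, NCAPH and NCAPG. Over all genes, 29.7% were called higher. SMC2 and NCAPD2 did not pass, though SMC2 was called higher in 6 of 14 alternatives. NCAPD2 was called lower without aristolochic acid 1 (adjusted p = 0.0343). SMC4, a core subunit, had 553, 551 and 581 CPM in the MYDGF libraries, 498, 487 and 505 CPM with aristolochic acid alone and 336, 329 and 304 CPM in untreated cells. The 3 groups did not overlap, with untreated lowest, at 0.62 (SE 0.0531, adjusted p = 1.94e-05) for aristolochic acid over untreated and 0.80 (SE 0.0532, adjusted p = 1.01e-05) for MYDGF over untreated. MYDGF over aristolochic acid was 0.18 (SE 0.0528, adjusted p = 0.0321), a call lost without any of the MYDGF libraries and without aristolochic acid 4 or 6 (adjusted p 0.0548 to 0.127). It was also lost with RLE scaling, DESeq2 or no filter on low counts (adjusted p 0.0546 to 0.0676). NCAPH, the subunit that closes the ring of condensin I, had 53.3, 53.2 and 55.5 CPM in the MYDGF libraries, 61.8, 61.5 and 64.5 CPM with aristolochic acid alone and 45.8, 47.0 and 43.0 CPM in untreated cells. It was highest with aristolochic acid alone, at 0.47 (SE 0.0648, adjusted p = 0.000251) over untreated and -0.21 (SE 0.0644, adjusted p = 0.0351) for MYDGF over aristolochic acid. The second call was lost without any of the MYDGF libraries and without aristolochic acid 4 or 6 (adjusted p 0.0558 to 0.118), and with no filter or a fit to the 6 libraries compared (adjusted p = 0.115 and 0.0708).

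TOP2A, the topoisomerase that untangles sister chromatids (chromosome 17, 40388525 to 40417896), had 1051, 1059 and 1075 CPM in the MYDGF libraries, 1016, 901 and 944 CPM with aristolochic acid alone and 1163, 1186 and 1198 CPM in untreated cells. Aristolochic acid libraries were lowest and untreated highest, at -0.31 (SE 0.0499, adjusted p = 0.000586) for aristolochic acid over untreated. The values for MYDGF over aristolochic acid, 0.16 (SE 0.0499, adjusted p = 0.0434), and over untreated, -0.16 (SE 0.0498, adjusted p = 0.0271), each lost their call in 5 of the 6 fits that left out 1 library (adjusted p 0.0897 to 0.143 and 0.0527 to 0.131); the calls held only without aristolochic acid 1 and only without untreated 1. The first was also lost with RLE or upper quartile scaling, DESeq2, no filter and the 6 libraries compared (adjusted p 0.0574 to 0.101), and the second with upper quartile scaling (adjusted p = 0.0614). MKI67, which coats mitotic chromosomes and marks proliferating cells, had 609, 589 and 604 CPM in the MYDGF libraries, 641, 552 and 660.4 CPM with aristolochic acid alone and 414, 398 and 432 CPM in untreated cells. It rose over untreated in both treated groups, at 0.57 (SE 0.0699, adjusted p = 0.000124) for aristolochic acid and 0.53 (SE 0.0699, adjusted p = 0.000269) for MYDGF, and MYDGF over aristolochic acid was -0.041 (adjusted p = 0.698). MKI67 and TOP2A, both used as proliferation markers, lay on opposite sides of the untreated level with aristolochic acid.

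Levels per kilobase of transcript (FPKM from the counts and the table's gene lengths) ordered the members. In untreated cells TOP2A was highest at 164 FPKM, followed by TPX2 at 71.7 FPKM, CDC20 at 49.9 FPKM, MYBL2 at 49.0 FPKM and CCNB1 at 48.6 FPKM. The last 3 lay close together. SPC25 was lowest in every group, with 1.17 FPKM with MYDGF and 1.44 FPKM with aristolochic acid alone. MYBL2 reached 148 FPKM with MYDGF, next to TOP2A at 147 FPKM. With aristolochic acid alone MYBL2 had 95.3 FPKM, below TPX2 at 103.7 FPKM and TOP2A at 132 FPKM. Together the 55 genes summed to 9786 to 10051 CPM in the MYDGF group, 8922 to 9683 CPM with aristolochic acid and 8479 to 8816 CPM in untreated cells. Within the aristolochic acid group, library 1 was highest: its mean log2 difference from the untreated mean over the 55 genes was 0.15, against -0.011 and 0.024 in libraries 4 and 6. Between the 3 libraries of a group the typical member differed little, with a median ratio of highest to lowest of 1.08 in the MYDGF group, 1.17 with aristolochic acid and 1.08 in untreated cells. Ratios of 1.5 or more were found for FOXM1, AURKA, KNL1 and PRC1 in the MYDGF group, CDC25B, SPC24 and SPC25 with aristolochic acid, and AURKA and PRC1 in untreated cells. Across the 55 genes, the Spearman correlation of log2 fold change with the length of the gene in the genome was 0.166 for aristolochic acid over untreated and -0.078 for MYDGF over aristolochic acid, as a description of genes that share the same libraries.

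Genes that work beside the 55 are given from 5 lists, all of whose members were tested, with levels as mean ± SD over 3 libraries. Over all genes tested, 29.7% were higher and 29.3% lower with aristolochic acid than in untreated cells, and 14.7% were higher and 14.7% lower with MYDGF than with aristolochic acid alone; the lists were not tested against these shares. Of 71 other mitosis genes, 37 were called with aristolochic acid, 24 higher and 13 lower (52.1%, against 59% of all genes), and 22 with MYDGF over aristolochic acid, 21 higher and 1 lower (31.0%, against 29.4% of all genes). PKMYT1, the kinase that keeps CDK1 inactive, had 60.2 ± 2.91 CPM in aristolochic acid and 21.3 ± 2.16 CPM in untreated cells, a change of 1.50 (SE 0.0928, adjusted p = 5.44e-06). CDCA5, or sororin, which protects cohesion, had 248 ± 7.01 CPM in aristolochic acid and 114 ± 2.28 CPM in untreated cells, a change of 1.12 (SE 0.0534, adjusted p = 3.06e-06). PSRC1, whose call was lost without untreated 3 (adjusted p = 0.0547), and PIMREG had the largest falls among those called, at -1.08 (SE 0.307, adjusted p = 0.0129) and -0.79 (SE 0.119, adjusted p = 0.000409). In MYDGF over aristolochic acid, CENPM and CCNF had the largest rises among those called, at 0.85 (SE 0.0879, adjusted p = 0.000684) and 0.73 (SE 0.114, adjusted p = 0.0026).

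The list for the anaphase-promoting complex held 15 genes, among them the coactivator FZR1. Of these 15, 4 were higher and 6 lower with aristolochic acid (66.7% called, against 59% of all genes). With MYDGF over aristolochic acid, 2 were higher and 1 lower (20.0% called, against 29.4% of all genes). FZR1, or CDH1, the coactivator that follows CDC20, had 31.8 ± 3.19 CPM in aristolochic acid and 65.0 ± 5.57 CPM in untreated cells, a change of -1.03 (SE 0.128, adjusted p = 0.000138), and was higher in MYDGF over aristolochic acid, at 0.68 (SE 0.128, adjusted p = 0.00531). Of 12 genes of cohesin and its loaders, 8 were higher and 1 lower with aristolochic acid (75.0% called, against 59% of all genes). The largest rise was in ESCO2, which acetylates cohesin, at 0.95 (SE 0.0742, adjusted p = 1.33e-05). With MYDGF over aristolochic acid, 1 was higher and 3 lower (33.3% called, against 29.4% of all genes).

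Among 21 genes of DREAM, MuvB, RB and E2F, 12 were higher and 4 lower with aristolochic acid (76.2% called, against 59% of all genes). E2F8, a repressor of E2F targets, was higher at 1.08 (SE 0.0968, adjusted p = 2.38e-05), and NFYB, a subunit of the CCAAT-binding factor, was lower at -1.06 (SE 0.0983, adjusted p = 2.86e-05). In MYDGF over aristolochic acid 6 were higher and 1 lower (33.3% called, against 29.4% of all genes). E2F7 had 177 ± 11.3 CPM in the MYDGF group and 58.4 ± 0.128 CPM in aristolochic acid alone, a change of 1.60 (SE 0.0668, adjusted p = 2.19e-05). Of 49 DNA replication genes, 34 were higher and 4 lower with aristolochic acid (77.6% called, against 59% of all genes), and 22 were higher and 2 lower with MYDGF over aristolochic acid (49.0%, against 29.4% of all genes). CDT1 and CDC6, which license replication origins, rose by 1.44 (SE 0.0889, adjusted p = 5.44e-06) and 1.40 (SE 0.0716, adjusted p = 3.83e-06). The median log2 fold change with aristolochic acid was 0.44 for the replication genes, 0.16 for the other mitosis genes and 0.086 for the 55 members, against -0.012 for all genes; the difference between the lists was not tested.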

How the data were processed

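Whole-number counts per gene, not normalized, were deposited by the authors for 9 libraries, together with FPKM values the authors made from the counts (a single gene length within 0.1% for all 33416 genes with an FPKM in 2 or more libraries). The submitters' processing notes name HISAT2, SAMtools 1.3.1, CASAVA 1.8 and edgeR, and a mouse build, mm10; the IDs and positions of the table are human and, in GENCODE 29, match GRCh38. The counting tool, annotation release, strand setting and handling of multi-mapping reads were not given in the sources used here. For 14 members with named pseudogenes or retrocopies in the table, these held at most 3.18% of the member's counts.

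Counts were tested with edgeR 4.0.16 in R 4.3.3: filterByExpr (minimum count 10, minimum total 15) left 18267 genes, TMM scaling and a quasi-likelihood fit of 1 factor with 3 groups to all 9 libraries left 6 residual degrees of freedom, and p-values were adjusted by Benjamini-Hochberg over all genes with a threshold of 0.05. SE is the standard error of a log2 fold change, n = 3 libraries per group. Libraries within a group differed by more than sampling noise. The labels do not say that they came from separate cultures, so the p-values reflect spread between samples that may be technical. CPM is TMM-scaled. Counting error alone limits members under 5 CPM (SPC25) most. Alternatives were RLE and upper quartile scaling, DESeq2 1.42.0, limma-voom 3.58.1, no filter, the 6 libraries compared, a replicate block, each library left out and, chosen after seeing the data, PRC1 and NUSAP1 summed with the overlapping locus. Promoters came from RefSeq. The script was tested on simulated data. The members, their roles and the gene lists were chosen with earlier results of these data known. Per-library values were given, by rule, for the largest called rise and fall in each role and for 12 fixed members. PRC1 and AURKA were added after their values were seen. From each other list at most 2 rises and 2 falls were named.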

Additional observations from a re-analysis of the deposited data

How the results depend on the processing

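Across 14 alternatives or left-out libraries per comparison, the counts of members called kept within 1.5 times of the reported ones, with these exceptions. Without MYDGF 4, 1 member was called lower in MYDGF over aristolochic acid, against 3, and without MYDGF 1 or without MYDGF 4, 4 members were called lower in MYDGF over untreated, against 8. With RLE scaling or DESeq2, 5 members were called lower in MYDGF over aristolochic acid, against 3. With the replicate block, 7 members were called lower in aristolochic acid over untreated; 0 were called, 0 higher and 0 lower, in MYDGF over aristolochic acid by edgeR (15 members at an unadjusted p under 0.05; 14 of all genes tested called); and 17 were called, 1 lower, with a median log2 fold change of 0.11, in MYDGF over untreated. The groups share at most 2 replicate numbers, and the deviations of same-numbered libraries from their group means correlated at -0.165 to 0.018. So few correlations, from means of 3 libraries, cannot show whether the numbers pair the libraries. The block also left fewer residual degrees of freedom than the 6 of the main fit.

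Leaving out 1 library at a time gave, for aristolochic acid over untreated, 30 to 36 members called, 18 to 20 higher, 12 to 16 lower and a median of 0.091 to 0.15. For MYDGF over aristolochic acid it gave 11 to 23 called, 10 to 19 higher, 1 to 4 lower and a median of 0.037 to 0.14. For MYDGF over untreated it gave 24 to 29 called, 19 to 22 higher, 4 to 7 lower and a median of 0.078 to 0.16. Of the 33, 16 and 30 calls, 29, 11 and 22 held without each library. Other scalings, tests, filters or fits ended the calls of CDK1, CDC25C and, once summed with its locus, NUSAP1 in aristolochic acid over untreated, those of ASPM, NCAPH, SMC4 and TOP2A in MYDGF over aristolochic acid, and those of INCENP, CENPE, NUF2 and TOP2A in MYDGF over untreated. The replicate block ended 11, 16 and 13 calls in the same order of comparisons. Some members that did not pass were called in other settings. These included KIF2C and SMC2 in aristolochic acid over untreated, AURKB and ANLN in MYDGF over aristolochic acid, and FOXM1 in each comparison. The cause of these shifts was not tested.

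Among the comparisons of genes given with values, signs turned for members that did not pass, as follows. The log2 fold change of PLK1 for MYDGF over aristolochic acid was -0.010 with RLE scaling, -0.011 with DESeq2 and -0.14 with the replicate block. In the same comparison and order of settings, CCNB2 stood at -0.018, -0.019 and -0.060, and ESPL1 at -0.0044, -0.0045 and -0.0011. With upper quartile scaling, FOXM1 stood at 0.0017 and CENPF at 0.014 for MYDGF over untreated. With the replicate block MKI67 stood at 0.0061 for MYDGF over aristolochic acid, and FOXM1 at 0.061 and AURKA at 0.11 for MYDGF over untreated. Summed with the overlapping locus, PRC1 stood at 0.034 for MYDGF over aristolochic acid and 0.075 for MYDGF over untreated. Without 1 library, PLK1 ran from -0.059 to 0.15 for aristolochic acid over untreated, -0.075 to 0.13 for MYDGF over aristolochic acid and -0.035 to 0.18 for MYDGF over untreated. AURKA ran from -0.21 to 0.19, -0.21 to 0.115 and -0.29 to 0.18 in the same order of comparisons. For MYDGF over untreated, FOXM1 ran from -0.30 to 0.14 and CENPF from -0.033 to 0.032. BIRC5 ran from -0.043 to 0.11 for aristolochic acid over untreated, and CCNB2 from -0.037 to 0.068 and ESPL1 from -0.048 to 0.16 for MYDGF over aristolochic acid. Depth limits SPC25, at 2 to 4 CPM.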
